A study of Mus musculus with 32 samples.

Results

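The genes described here are 36 genes of hepatic stellate cells and of the extracellular matrix, chosen by name out of 35523 genes quantified in mouse liver. They comprise collagens, matrix glycoproteins and proteoglycans, enzymes that cut or crosslink the matrix and their inhibitors, markers of stellate and contractile cells, and a pair of TGF-β genes. Liver mRNA was sequenced from C57BL/6J mice of 8 groups with 4 livers each. The groups combine genotype (Nudt7-/-, called KO, against WT littermates), sex (females, F, against males, M) and diet (Western diet, WD, against control diet, CD). The WD supplied 41% of kcal as fat with 0.2% cholesterol and the CD supplied 10% of kcal as fat with 0% cholesterol, from 6 weeks of age until the livers were taken at 17 to 20 weeks. KO mice lack exons 3 and 4 of Nudt7, a peroxisomal CoA diphosphohydrolase, in the whole body. The deletion arose by genome editing in FVB zygotes and goes back to a single mosaic founder whose descendants were backcrossed to C57BL/6J. The KO mice therefore represent 1 editing event. Any FVB sequence kept next to the deleted exons goes with the KO genotype and cannot be told apart from the deletion. Each library is a separate liver, and p-values measure the spread between livers.

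Stellate cells lie between hepatocytes and the sinusoidal endothelium, where they store retinoids. In injured liver they turn into contractile, collagen-producing myofibroblasts under TGF-β and PDGF signals, and they then carry smooth muscle actin, fibrillar collagens and TIMP1. Portal fibroblasts make matrix around the portal tracts, endothelial cells contribute basement membrane, and hepatocytes secrete the fibronectin of plasma. In whole liver, a change in how many cells of a type are present and a change in RNA per cell cannot be told apart.

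The libraries held 10140048 to 15825078 counts, and Nudt7 was lower in every KO liver than in each WT liver of the same sex and diet. Stellate cell markers were present in all 32 livers. Reln stood at 54.7 to 124.9 CPM (counts relative to the library total, scaled with TMM factors), Lrat, the retinol-esterifying enzyme, at 14.4 to 60.9 and Colec11 at 20.1 to 45.7, against 31070 to 80110 for the hepatocyte gene Alb. Transcripts of pancreatic acinar cells exceeded 10 times the median in 4 female livers, with a summed level of 515.6 to 6935 CPM, namely KO CD replicate 3, WT WD replicate 4 and WT CD replicates 2 and 4. A further liver, KO males WD replicate 1, had the highest level of all 32 for 18 of the 36 genes. KO females CD replicate 3 was highest for 7 genes.

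The 36 genes spanned a wide range of levels. Per length, Fn1 (fibronectin) was the most abundant at a mean of 385 TPM (transcript abundance corrected for length), followed by Dcn (decorin, a small proteoglycan that binds collagen and TGF-β) at 151.8 and Ecm1, an extracellular matrix glycoprotein, at 108.6. Bgn (biglycan) stood at 67.2 TPM, Sparc, a collagen-binding glycoprotein, at 39.6, and Mmp14, a membrane-anchored collagenase that activates MMP2, at 25.9. Reln (reelin), in liver a product of stellate cells, stood at 24.9 TPM. The collagens were lower, with Col14a1 at 19.1, Col3a1 at 12.4, Col4a1 at 10.2, Col1a2 at 4.91 and Col1a1 at 2.49 TPM. The lowest were Thbs1 (thrombospondin-1, which activates latent TGF-β) at 0.527, Timp1 at 0.405 and the crosslinking enzyme Lox at 0.234 TPM. Timp1, an inhibitor of matrix metalloproteinases, was too low for the test, and Lox passed the filter in some comparisons only, so that 34 or 35 of the 36 genes were tested.

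**Figure D1:**
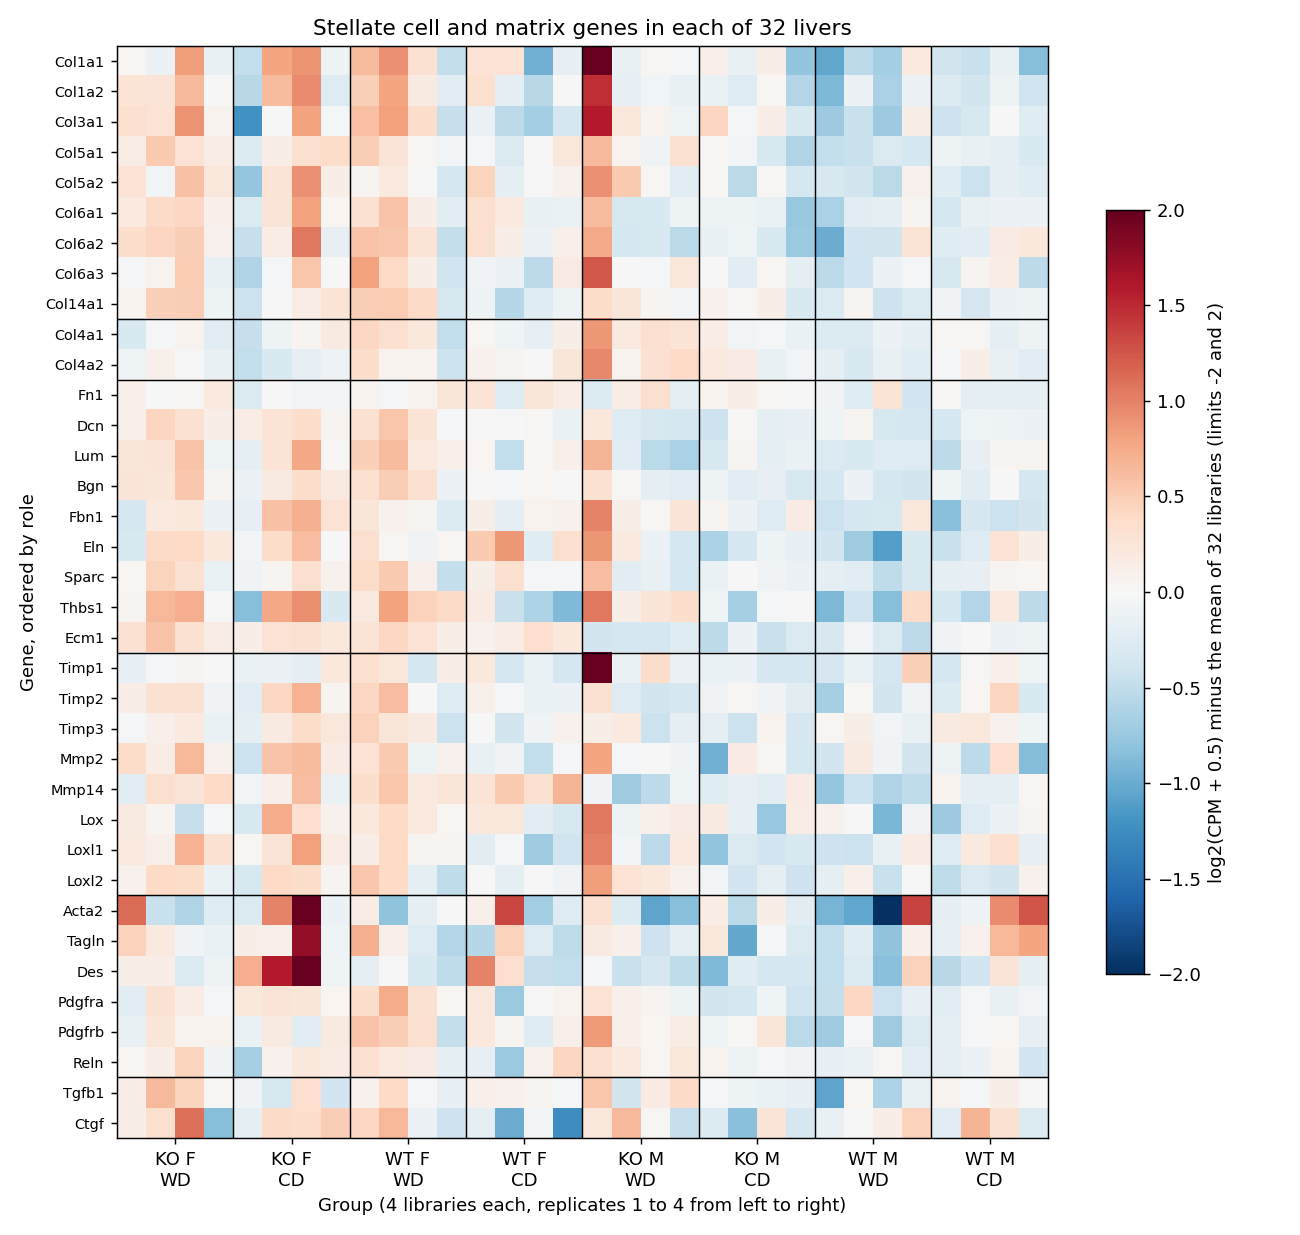
Heat map of the 36 genes (rows, ordered by role) in 32 livers (columns, 4 per group), as log2(CPM + 0.5) minus the mean of all livers, with the color scale limited to -2 and 2. KO males WD replicate 1 is high for most collagens and Timp1, KO females CD replicate 3 is high for Acta2, Tagln and Des, and Ecm1 is higher in the female columns.

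Spread between livers of a group differed by gene. Within groups the SD of log2(CPM + 0.5) was 0.132 for Ecm1, 0.177 for Bgn, 0.183 for Dcn and 0.185 for Fn1. It was 0.95 for Acta2 (smooth muscle α-actin), 0.69 for Des (desmin, an intermediate filament of stellate and muscle cells), 0.628 for Col1a1 and 0.506 for Col3a1. Other genes lay between these values, with 0.227 for Col5a1, 0.257 for Col14a1 and 0.26 for Sparc.

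Sex gave the most calls. Averaged over genotype and diet in a model of all 32 livers, 13 of 35 genes tested (37.1%) were higher in females and none was lower (edgeR quasi-likelihood test, Benjamini-Hochberg adjusted over all genes). Over all genes, 15.9% were higher in females, and 31.6% differed in either direction. An unadjusted p under 0.05 was found for 13 of the 35 (37.1%), against 42.4% of all genes. The median log2 fold change of the 35 genes was 0.27, against 0.02 over all genes. The genes called were Ecm1, Bgn, Dcn, Eln, Lum and Sparc among the 9 glycoproteins, proteoglycans and elastic fiber genes, Col5a1, Col6a1 and Col6a2 among the 9 fibrillar and network collagens, Mmp14 and Timp2 among the 7 remodeling genes tested, and Des and Pdgfra among the 6 stellate and contractile genes. Neither collagen IV gene and neither TGF-β gene was called. Without the 4 livers with acinar transcripts 12 of 35 genes were called, all higher in females, as were 1998 of 13361 over all genes. With KO males WD replicate 1 left out as well, 19 of 35 were called, all higher in females, as were 2286 of 13339 over all genes.

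**Figure D2:**
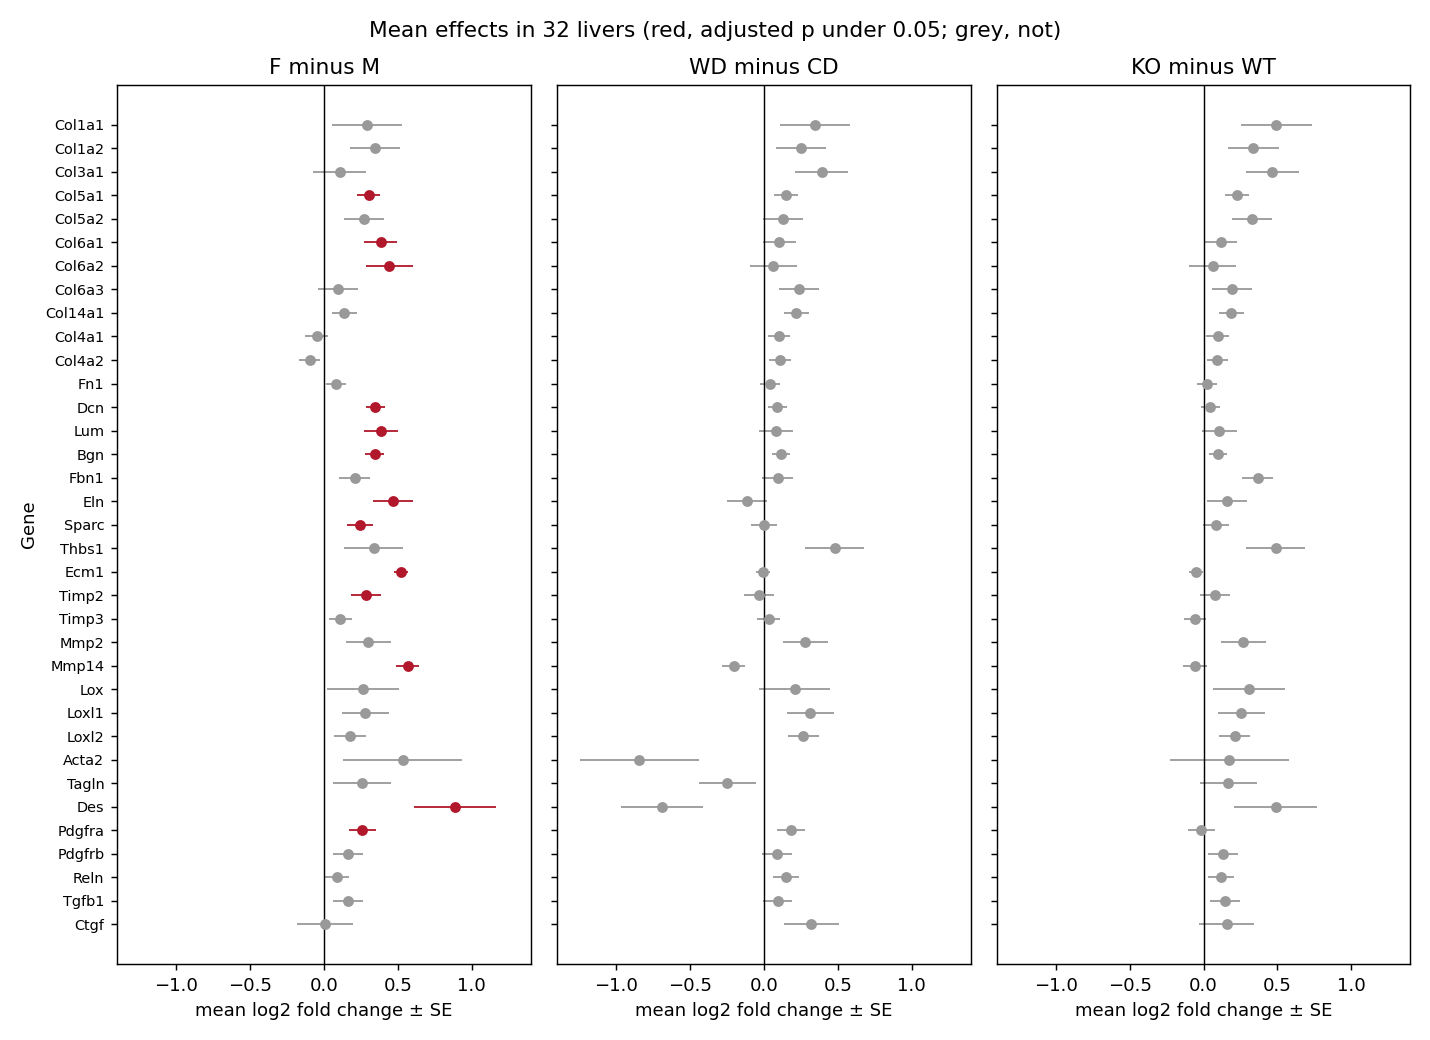
Mean log2 fold change ± SE of the 35 genes tested for females minus males, WD minus CD and KO minus WT in 32 livers, with red points for an adjusted p under 0.05 and grey points for the others. The 13 red points lie in the panel of females minus males, all above 0, and the other panels hold none.

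Ecm1 (ENSMUSG00000028108, GRCm38 chromosome 3, 95734147 to 95739569, minus strand) separated the sexes without overlap. Its level was 110.2 CPM at the lowest, 126 at the median and 155 at the highest in 16 female livers, against 72, 85 and 104.6 CPM in 16 male livers. The log2 fold change was 0.52 (SE 0.05, 1.43-fold, adjusted p = 1.33e-09 from edgeR). Ecm1 was also called in KO females against KO males on the WD (0.66, adjusted p = 0.00241) and the CD (0.58, adjusted p = 0.00814) and in WT females against WT males on the WD (0.59, adjusted p = 0.0066). On the CD, WT females had 110.2, 115.2, 131.7 and 120.2 CPM and WT males 98.6, 104.6, 95.7 and 97.3 CPM. The groups did not overlap there either. The difference of 0.28 was not called by edgeR (adjusted p = 0.224), but DESeq2 with length offsets called Ecm1 there. The promoter window of Ecm1 is printed because this gene showed the sex difference most clearly. It runs from 250 bases before to 50 after the start (chr3:95739520-95739819, minus strand, RefSeq, GRCm38.p6), and capitals mark GGGCGG and TATAAA.
Ecm1: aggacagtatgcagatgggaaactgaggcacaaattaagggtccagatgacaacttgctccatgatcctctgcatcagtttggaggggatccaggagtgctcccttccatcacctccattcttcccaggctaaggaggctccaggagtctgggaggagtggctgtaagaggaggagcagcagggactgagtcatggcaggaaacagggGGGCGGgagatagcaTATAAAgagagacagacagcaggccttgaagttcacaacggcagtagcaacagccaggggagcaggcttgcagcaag
The motifs GGGCGG and TATAAA, searched on both strands, occur in 35.7% and 13.6% of 32851 promoter windows of the same length.

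Mmp14 (ENSMUSG00000000957, GRCm38 chromosome 14, 54431612 to 54445364, plus strand) was higher in females by 0.57 (SE 0.08, 1.48-fold, adjusted p = 1.87e-06). Females ranged over 38.1, 55 and 71.7 CPM (lowest, median, highest) and males over 25.7, 38.5 and 50.2 CPM, so that the sexes overlapped. The largest single difference was between WT females and WT males on the WD, with 57, 65.8, 51 and 52.9 CPM in females against 25.7, 32.8, 29.2 and 31.4 CPM in males (log2 fold change 0.94, adjusted p = 0.000482). On the CD the difference between WT females and males was 0.54 (adjusted p = 0.0469). That call was lost without any 1 of 7 of the 8 livers (all but WT females CD replicate 2, adjusted p 0.06 to 0.157). In KO mice the differences were 0.53 on the WD and 0.27 on the CD, and neither was called in the fits of single pairs (adjusted p = 0.0858 and 0.371). In the model of all 32 livers edgeR called the difference on the WD (0.53, adjusted p = 0.027), 1 of 5 calls among 35 genes, against 1429 of 13539 over all genes. It was also called without KO females WD replicate 1. Without KO females CD replicate 3 the difference on the CD was 0.09 (adjusted p = 0.761). The Mmp14 promoter window (chr14:54431348-54431647, plus strand, RefSeq, GRCm38.p6) is shown because Mmp14 was called for sex and for diet.
Mmp14: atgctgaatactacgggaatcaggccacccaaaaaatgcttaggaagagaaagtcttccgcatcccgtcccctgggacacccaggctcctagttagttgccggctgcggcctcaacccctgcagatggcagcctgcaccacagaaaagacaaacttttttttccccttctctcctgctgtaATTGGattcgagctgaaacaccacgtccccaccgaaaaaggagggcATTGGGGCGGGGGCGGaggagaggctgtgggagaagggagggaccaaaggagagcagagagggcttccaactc
Capitals mark GGGCGG and CCAAT on either strand. The second match of CCAAT, on the opposite strand, overlaps a GGGCGG by 1 base. Of all windows, 37.4% hold CCAAT.

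**Figure D3:**
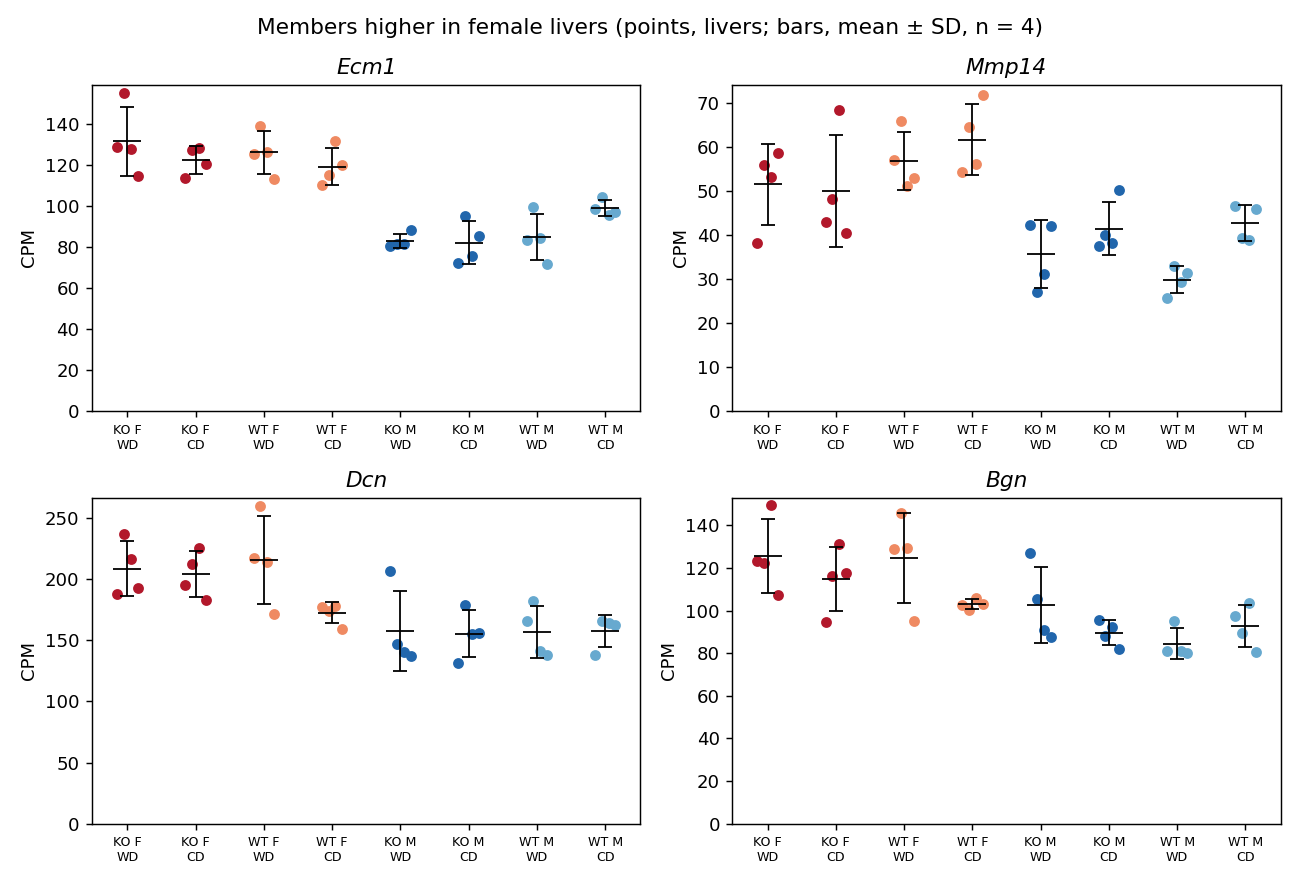
CPM of Ecm1, Mmp14, Dcn and Bgn in each liver (points) with the mean and SD of 4 (bars) in 8 groups, females left of males, KO left of WT and WD left of CD. Ecm1 lies at 110.2 CPM or above in all female livers and at 104.6 or below in all male livers, while the sexes overlap for the other genes.

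The small leucine-rich proteoglycans rose together in females. Dcn had 159.4, 193.8 and 259.5 CPM (lowest, median, highest) in females against 131.6, 155.5 and 206.3 CPM in males (log2 fold change 0.35, SE 0.06, adjusted p = 0.000126). Bgn had 94.6, 116.9 and 149.3 CPM in females against 80.1, 90 and 126.9 CPM in males (0.34, SE 0.06, adjusted p = 8.34e-05). The highest male liver for both was KO males WD replicate 1. Lum (lumican), which regulates collagen fibril assembly, differed by 0.39 (adjusted p = 0.0119), Eln (elastin) by 0.47 (adjusted p = 0.00871) and Sparc by 0.24 (adjusted p = 0.0339). The Eln call was lost without the 4 livers with acinar transcripts (adjusted p = 0.0524) and held when KO males WD replicate 1 was left out too (adjusted p = 0.00742).

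Col5a1, Col6a1 and Col6a2 were the collagen genes higher in females, whereas the other genes of types V and VI (Col5a2 and Col6a3) and those of types I and III did not pass the test. Col5a1, whose product nucleates collagen fibrils, had 10.4, 14.2 and 18.5 CPM in females against 8.2, 11.3 and 20.2 CPM in males (log2 fold change 0.30, adjusted p = 0.00487). Col6a1 and Col6a2 encode chains of the microfibrillar collagen VI. Their differences were 0.38 (adjusted p = 0.00843) and 0.44 (adjusted p = 0.0337). Col1a1 had 3.84, 9.03 and 15.4 CPM in females against 3.64, 7.13 and 37.6 CPM in males (0.29, adjusted p = 0.373), and Col3a1 differed by 0.11 (adjusted p = 0.685). Without KO males WD replicate 1, Col1a1 differed by 0.53 (adjusted p = 0.0265).

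Among the remaining genes called for sex, Timp2, an inhibitor that also helps MMP14 to activate MMP2, differed by 0.28 (adjusted p = 0.0329) and Pdgfra, a receptor for platelet-derived growth factors, by 0.26 (adjusted p = 0.0315). Des differed by 0.89 (SE 0.28, adjusted p = 0.0174), with 3.5, 4.99 and 73.8 CPM in females against 2.59, 4.01 and 7.37 CPM in males. Without KO females CD replicate 3 the Des difference was 0.54 (adjusted p = 0.0184). Several calls near the threshold were lost when a single liver was left out. Pdgfra lost its call without liver 2 of KO or WT females WD, liver 1 of WT females CD, or liver 1 or 3 of WT males WD (adjusted p 0.0535 to 0.0624). Timp2 lost it without liver 2 of KO females WD, liver 3 of KO females CD, liver 1 or 2 of WT females WD, liver 1 of WT females CD, liver 2 or 3 of KO males WD, liver 1 of WT males WD, or liver 1 or 4 of WT males CD (0.0502 to 0.0624). Col6a2 lost it without liver 3 of KO females CD, liver 1 or 2 of WT females WD, liver 1 of WT females CD, liver 2, 3 or 4 of KO males WD, liver 4 of KO males CD, liver 1 of WT males WD, or liver 1 or 2 of WT males CD (0.0516 to 0.0736). Sparc lost it without liver 2 of KO females WD, liver 3 of KO females CD, liver 1 or 2 of WT females WD, liver 2 of WT females CD, liver 2, 3 or 4 of KO males WD, liver 3 of WT males WD, or liver 1 or 2 of WT males CD (0.0506 to 0.063).

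Other genes of the 36 showed no sex difference that passed the test. Fn1 had 1575, 1987 and 2333 CPM in females against 1477, 1886 and 2423 CPM in males (log2 fold change 0.08, adjusted p = 0.382). Reln had 54.7, 98.9 and 124.9 CPM in females against 70, 88.3 and 114.1 CPM in males (0.09, adjusted p = 0.481). With length offsets, however, edgeR and DESeq2 both called Reln, among 14 of 35 genes in each fit, all higher in females. Over all genes, 1804 and 1905 of 13539 were higher in females in these fits. Pdgfrb, the PDGF receptor typical of stellate cells, had 8.81, 13.2 and 18.6 CPM in females against 7.4, 12.1 and 22.8 CPM in males (0.16, adjusted p = 0.232). The sexes overlapped over most of their ranges in these genes. Mmp2, a gelatinase, had 1.88, 3.12 and 4.76 CPM in females against 1.22, 2.69 and 5.26 CPM in males (0.30, adjusted p = 0.133). Tgfb1, the profibrotic cytokine, had 6.77, 9.49 and 14.4 CPM in females against 4.1, 8.77 and 13.4 CPM in males (0.16, adjusted p = 0.221). Ctgf, a matricellular target of TGF-β, had 1.51, 4.39 and 9.69 CPM in females against 2.16, 4.27 and 7.11 CPM in males (0.01, adjusted p = 0.988). Both TGF-β genes thus overlapped as well. Acta2 differed by 0.53 with an SE of 0.40 (adjusted p = 0.326), or by 0.16 without KO females CD replicate 3 (adjusted p = 0.758). Lox differed by 0.26 with an SE of 0.24 (adjusted p = 0.423). Of those not yet named, Col1a2, Col5a2, Loxl1, Loxl2, Thbs1, Fbn1, Tagln, Timp3, Col6a3 and Col14a1 lay between 0.10 (Col6a3) and 0.35 (Col1a2), with adjusted p of 0.125 to 0.622, and the collagen IV genes at -0.05 (Col4a1) and -0.10 (Col4a2).

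By single pair of groups, 6 of 35 genes were higher in WT females than in WT males on the WD and 0 were lower. Over all genes, 603 of 12524 were higher in females and 9.64% differed in either direction. The 6 were Mmp14, Ecm1, Lum (0.69, adjusted p = 0.0112), Bgn (0.58, adjusted p = 0.0157), Col5a1 (0.63, adjusted p = 0.0169) and Eln (0.79, adjusted p = 0.0449), and the median over the 35 genes was 0.50. Lum had 13.7, 15.4, 11.2 and 10.4 CPM in WT females WD and 7.86, 7.73, 8.07 and 8.03 CPM in WT males WD, without overlap. In the edgeR model of all 32 livers neither Lum (0.68, adjusted p = 0.0612) nor Eln (0.78, 0.075) was called. With length offsets, Eln was not called by edgeR (adjusted p = 0.0826) or DESeq2 (0.0626). The same held for Col5a1 (edgeR 0.0872, DESeq2 0.0541). WT females WD replicate 4, which held acinar transcripts, was the lowest of its group for all 11 collagens, and 18 of 34 genes were called without it. Calls over all genes rose as well, from 1207 of 12524 to 1789 of 12323. The 18 included Col1a1 (1.13, adjusted p = 0.0323). Calls were lost without WT males WD replicate 3 (Bgn, adjusted p = 0.05) or WT females WD replicate 3 (Bgn, 0.0513), without WT males WD replicate 1 (Col5a1, 0.0522) or WT females WD replicate 1 (Col5a1, 0.0503), and for Eln without any 1 of 6 livers (all but WT males WD replicate 4 and WT females WD replicate 4, 0.0649 to 0.133). In KO females against KO males on the CD, Ecm1 and Pdgfra were called, 2 of 34 genes against 6.66% of all. Pdgfra had 12.5, 12.8, 12.8 and 10.9 CPM in KO females and 8.14, 8.21, 9.96 and 7.99 CPM in KO males (0.51, adjusted p = 0.0348). This call was lost without KO males CD replicate 1, 2 or 4 or KO females CD replicate 1, 2 or 3 (0.0654 to 0.0937). In WT females against WT males on the CD, Mmp14 was the only gene called by edgeR, 1 of 34 against 2.24% of all.

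In KO females against KO males on the WD, 2 of 34 genes were called against 9.66% of all, Ecm1 higher and Col4a1 lower in females. An unadjusted p under 0.05 was found for 5 of the 34, against 25.9% of all genes. Without KO males WD replicate 1 there were 7 calls of 34, against 1187 of 12574 over all genes. Dcn (0.55), Col6a2 (0.80), Lum (0.75), Timp2 (0.51) and Col6a1 (0.54) were then also higher in females. Ecm1 alone was called without KO males WD replicate 3 or without KO females WD replicate 2, 3 or 4. The difference between KO and WT mice in the sex effect was tested as an interaction. No gene of 35 was called by edgeR (0.00% of all genes), with 5 at an unadjusted p under 0.05 (11.1% of all genes). DESeq2 with length offsets called 1, Col4a2 (-0.64, adjusted p = 0.0314), for which edgeR gave -0.63 (adjusted p = 0.188).

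Markers of other cell types differed by sex as well, beside 15.9% of all genes higher in females and 31.6% that differed in either direction. Of other stellate cell markers, 6 of 15 were higher in females and none lower, among them Vipr1 (0.28, adjusted p = 2.78e-05), and their summed level was 297.4 to 578 CPM in females and 375.6 to 544.7 CPM in males. Portal fibroblast and mesothelial markers were higher for 5 of 10, led by Gas6, a ligand of TAM receptors (1.32, adjusted p = 1.56e-07), and Upk3b, a mesothelial marker (0.72, adjusted p = 0.0181). Their sum was 63.9 to 171.2 CPM in females and 34.7 to 71.9 CPM in males. Endothelial markers were higher for 6 of 12 (summed level 456.7 to 690.4 CPM in females, 448.1 to 593.9 in males) and macrophage markers for 6 of 10 (345 to 728.2 CPM in females, 300.1 to 531.8 in males). Smooth muscle markers were higher for 2 of 8, including Smtn (0.29, adjusted p = 0.0156), with a sum of 129.9 to 350.4 CPM in females and 134.8 to 195.9 CPM in males. Cholangiocyte markers were higher for 2 of 7, Muc1 and Epcam, with a sum of 54.5 to 105.9 CPM in females and 49 to 130.4 CPM in males. Hepatocyte markers were higher for 1 and lower for 3 of 8. No marker of these lists was at 0 in all livers of a sex. Their part in the sex differences of the 36 genes was not tested.

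A single liver stood apart among KO males on the WD. In KO males WD, Col1a1 had 37.6, 7.14, 8.19 and 7.8 CPM, against 8.59, 7.14, 8.81 and 4.42 CPM in KO males CD and 3.64, 5.39, 4.8 and 9.25 CPM in WT males WD. Col3a1 had 114, 44.3, 39.6 and 35.6 CPM in KO males WD, against 50.6, 36.8, 41.2 and 30.4 CPM in KO males CD. In both genes replicate 1 stood apart and the other 3 livers overlapped with the CD group. Timp1 had 29 counts in that liver and 0 to 4 counts in each of the other 31. Fbn1 (fibrillin-1, 13.6 CPM), Loxl2 (a lysyl oxidase, 11.7), Pdgfrb (22.8), Sparc (93.1) and Mmp2 (5.26) were also highest there of all 32 livers. Acta2 in the same liver was 3.35 CPM, within the range of 0.192 to 27 CPM of all livers, and Tagln (transgelin, an actin-binding protein of contractile cells) was 5.42 CPM. Its cholangiocyte markers summed to 130.4 CPM, against 49 to 105.9 CPM in the other 31 livers, and its acinar markers to 13.2 CPM. Its hepatocyte markers summed to 48320 CPM, the lowest of all but close to replicates 3 and 4 of the same group (48700 and 50470 CPM). The part of these markers in its matrix gene levels was not tested.

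**Figure D4:**
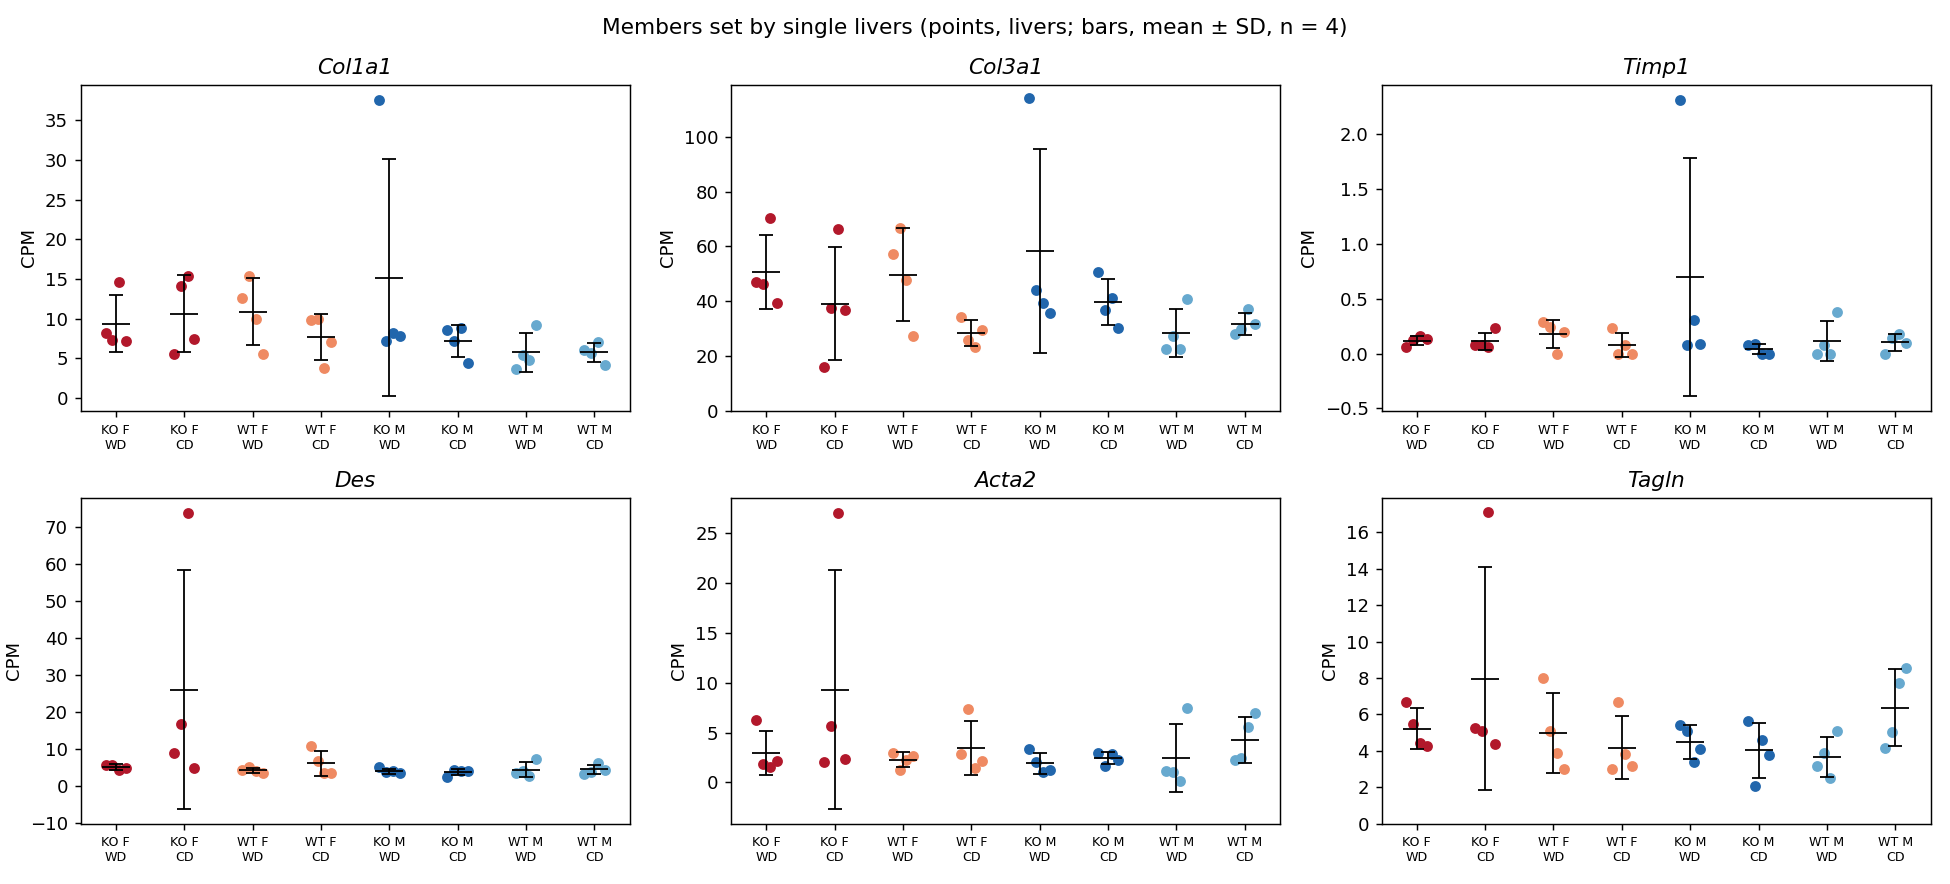
CPM of Col1a1, Col3a1, Timp1, Des, Acta2 and Tagln in each liver (points) with the mean and SD of 4 (bars, which reach below 0 where 1 liver stands apart) in 8 groups. KO males WD replicate 1 holds 37.6 CPM of Col1a1 and 114 CPM of Col3a1, and KO females CD replicate 3 holds 73.8 CPM of Des and 27 CPM of Acta2.

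A different liver carried the contractile genes. KO females CD had 8.89, 16.6, 73.8 and 4.85 CPM of Des, against 10.8, 6.69, 3.62 and 3.55 CPM in WT females CD. Acta2 had 2.06, 5.68, 27 and 2.38 CPM in KO females CD, against 2.84, 7.4, 1.43 and 2.1 CPM in WT females CD. Tagln had 5.24, 5.11, 17.1 and 4.39 CPM in KO females CD, against 3, 6.69, 3.84 and 3.16 CPM in WT females CD. Replicate 3 of the KO group was the highest of all 32 livers for the 3 genes, while the rest of the group overlapped with WT. Smooth muscle markers outside the 36 genes were also highest in it, with a sum of 350.4 CPM against 129.9 to 201.2 CPM in the others, of which Myh11 had 31.9 CPM and Cnn1, at 0 in 8 livers, 5.83 CPM. This liver also held acinar transcripts at 3184 CPM, and their part was not tested.

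Diet gave few calls among the 36 genes. In the mean over sex and genotype edgeR called none of 35, although 19.4% of all genes differed. An unadjusted p under 0.05 was found for 7 of the 35, against 32.8% of all genes. DESeq2 with length offsets called 2, Col3a1 (0.57, adjusted p = 0.0389) and Des (-0.67, adjusted p = 0.0352). For Des edgeR gave -0.69 (adjusted p = 0.0846), or -0.34 without KO females CD replicate 3 (adjusted p = 0.17). Without the 4 livers with acinar transcripts edgeR called Col14a1, a fibril-associated collagen (0.26, adjusted p = 0.0214), Loxl2 (0.32, 0.0431), Col3a1 (0.54, 0.044) and Col6a3 (0.39, 0.0489), and with KO males WD replicate 1 left out too Col14a1 and Col3a1. Over all genes 2378 of 13361 and 2444 of 13339 were called in these fits. Leaving out 1 liver gave 3 calls without liver 3 (Thbs1, Col3a1 and Col14a1) or 4 (Des, Col14a1 and Mmp14) of KO females CD, 2 without liver 4 of KO or WT females WD, and 1 without liver 1 of KO females CD, liver 1 or 4 of WT females CD, liver 1 or 4 of KO males WD, or liver 4 of WT males WD or CD. The gene called without WT males WD replicate 4 was Acta2. In all 32 livers Col14a1 differed by 0.22 (SE 0.08, adjusted p = 0.0625) and Col1a1 by 0.35 (SE 0.24, adjusted p = 0.327), or by 0.11 without KO males WD replicate 1 (adjusted p = 0.724).

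In WT males, where 13.7% of all genes differed between the diets, 1 of 34 was called. Mmp14 fell by 0.50 on the log2 scale (SE 0.10, adjusted p = 0.0115), with 25.7, 32.8, 29.2 and 31.4 CPM on the WD against 46.6, 39.3, 38.8 and 45.9 CPM on the CD. The diets did not overlap. With length offsets in edgeR the change was -0.43 and was not called (adjusted p = 0.0544). DESeq2 with length offsets called it (-0.43, adjusted p = 0.0107). When the length trend of each library was removed, Col4a1 (-0.29), Col5a1 (-0.37) and Col4a2 (-0.29) were called as well. That made 4 of 34, against 1211 of 12235 over all genes. A total of 2 genes were called without WT males CD replicate 1 (Mmp14 and Tagln) and 3 without WT males WD replicate 4 (Mmp14, Acta2 and Tagln). Acta2 had 7.46 CPM in that last liver and 0.192 to 1.14 CPM in the others of its group. The median over the 34 genes in WT males was -0.12, with 10 of 34 above 0 (51.2% of all genes).

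In KO males none of 34 was called for the diet (2.60% of all genes), and DESeq2 called none. An unadjusted p under 0.05 was found for 9 (17.4% of all genes). The median was 0.39, and 30 of 34 were above 0 (51.4% of all genes). Without KO males WD replicate 1 the median was 0.10 and 27 of 34 were above 0 (49.3% of all genes). In that fit 4 had an unadjusted p under 0.05 (16.8% of all genes). Col1a1 then differed by 0.09 in place of 1.08. In WT females none of 35 was called by edgeR (0.0785% of all genes), and DESeq2 called Col3a1 (1.21, adjusted p = 0.011). With edgeR 7 had an unadjusted p under 0.05 (8.46% of all genes). Col3a1 had 57.1, 66.6, 47.9 and 27.2 CPM in WT females WD against 34.3, 26, 23.4 and 29.7 CPM in WT females CD. Without WT females WD replicate 4, whose value lies within the range of the CD group, edgeR called 1 gene of 35, Col3a1 (37 of 12613 over all genes). In that fit 17 had an unadjusted p under 0.05 (10.9% of all genes). In KO females none of 35 was called by edgeR in the fit of the pair (0.125% of all genes) or by DESeq2, with 2 at an unadjusted p under 0.05 (9.9% of all genes). In the model of all 32 livers edgeR called 1 of 35, Des (-2.35, adjusted p = 0.0305), against 89 of 13539 over all genes. Without KO females CD replicate 3 the fit of the pair gave -0.97 for Des (adjusted p = 0.329). The change in the diet effect between females and males was called for none of 35 (0.244% of all genes), with 3 at an unadjusted p under 0.05 (11.75% of all genes). That between KO and WT was called for none of 35 (0.00% of all genes), with 3 at an unadjusted p under 0.05 (8.43% of all genes). DESeq2 called none in either.

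Genotype gave no call among the 36 genes in edgeR's tests of each pair of groups and of the mean, and 2 calls in males on the WD under alternatives. In the mean over sex and diet edgeR called none of 35 against 0.0886% of all genes, and so did DESeq2. An unadjusted p under 0.05 was found for 7 (9.09% of all genes). Of the 35, 31 were above 0 (51.0% of all genes) with a median of 0.16, or 30 with a median of 0.09 without KO males WD replicate 1. Without the 4 livers with acinar transcripts 25 were above 0 with a median of 0.07, and 22 with a median of 0.03 when KO males WD replicate 1 was left out too. The smallest p was that of Fbn1, a microfibril protein (0.37, SE 0.11, adjusted p = 0.271). In KO against WT males on the WD none of 34 was called (0.0162% of all genes) and the median was 0.38. An unadjusted p under 0.05 was found for 15 of the 34, against 9.69% of all genes. DESeq2 called Col4a1 (0.73, adjusted p = 0.0449), and edgeR in the model of all 32 livers called Col4a2 (0.70, adjusted p = 0.0329). Col4a1 had 80.9, 50.7, 55.5 and 53.8 CPM in KO males WD against 36.4, 36.6, 40.9 and 38.8 CPM in WT males WD, without overlap, and edgeR gave 0.67 (SE 0.14, adjusted p = 0.317). Without KO males WD replicate 1 the median was 0.20, and 9 of 34 had an unadjusted p under 0.05 (6.53% of all genes). On the CD none of 34 was called in males (0.00814% of all genes, 5 at an unadjusted p under 0.05) or females (0.0314%, 4 at an unadjusted p under 0.05), and in females on the WD none of 35 (0.0156%, 0 at an unadjusted p under 0.05). Over all genes, 9.74%, 6.87% and 7.65% had an unadjusted p under 0.05 in males CD, females CD and females WD. DESeq2 called none in these 3 comparisons. The median in females on the CD was 0.23, or 0.09 without KO females CD replicate 3 and 0.08 without the livers with acinar transcripts. Des there differed by 2.10 (SE 0.96, adjusted p = 0.736), or by 0.71 without KO females CD replicate 3 (adjusted p = 0.818).

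Col4a1 and Col4a2 encode the α1 and α2 chains that assemble into the main network of basement membranes. The genes lie head to head on chromosome 8 of GRCm38, with Col4a1 at 11198423 to 11312826 on the minus strand and Col4a2 at 11312805 to 11449287 on the plus strand, so that their starts are 21 bases apart. They are shown in sequence because their levels moved together between livers. The window of Col4a1 (chr8:11312777-11313076, minus strand, RefSeq, GRCm38.p6) has GGGCGG and CCAAT in capitals, both found here on the opposite strand.
Col4a1: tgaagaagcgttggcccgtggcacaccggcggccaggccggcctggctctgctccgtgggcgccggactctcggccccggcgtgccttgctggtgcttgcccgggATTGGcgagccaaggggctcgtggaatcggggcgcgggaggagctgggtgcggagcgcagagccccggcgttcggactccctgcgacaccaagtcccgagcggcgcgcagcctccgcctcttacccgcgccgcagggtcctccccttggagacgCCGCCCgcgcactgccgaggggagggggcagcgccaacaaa
The start of Col4a2 corresponds to base 272 of this window, and the windows of both genes share 78 bases. In KO females WD against KO males WD, Col4a1 had 35.8, 43.4, 46.5 and 38 CPM in females and 80.9, 50.7, 55.5 and 53.8 CPM in males, without overlap (-0.56, adjusted p = 0.0368). Col4a2 had 26, 29.9, 27.6 and 25 CPM in females and 54.5, 29.3, 34.5 and 36.7 CPM in males (-0.52, adjusted p = 0.0792). The Col4a1 call was lost without KO males WD replicate 3 or any 1 of the 4 KO females WD (adjusted p 0.0606 to 0.112) and held without KO males WD replicate 1 (-0.39, adjusted p = 0.0395). In WT mice on the WD, Col4a1 was 0.39 higher in females, which was not called (adjusted p = 0.186). Without WT females WD replicate 4, edgeR called it (0.54, adjusted p = 0.00349), among 18 of 34 genes and 1789 of 12323 over all genes.

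**Figure D5:**
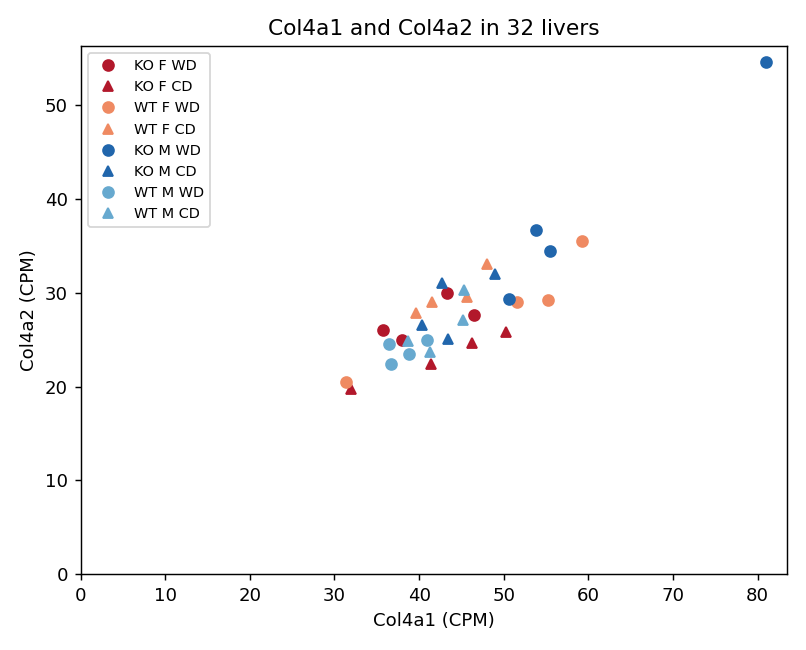
CPM of Col4a2 against CPM of Col4a1 in 32 livers, with circles for WD, triangles for CD and colors for genotype and sex. The points lie along a line, and KO males WD replicate 1, at 80.9 and 54.5 CPM, is the farthest from the origin.

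Whether genes varied together between livers of the same group was examined for 6 pairs, from deviations of log2(CPM + 0.5) from the group mean in 32 livers (two-sided permutation within groups, 100000 resamples, adjusted over the 6 pairs). Col4a1 and Col4a2 had r = 0.88 and rho = 0.84 (permutation p = 1e-05, the smallest the permutations can give, and 2e-05, adjusted 6e-05 and 9e-05), with r = 0.81 without the 2 livers farthest from the median. Col1a1 and Col3a1 had r = 0.88 and rho = 0.85 (permutation p = 2e-05 and 3e-05, adjusted 6e-05 and 9e-05), and r = 0.85 without the 2 farthest. Acta2 and Tagln had r = 0.77 and rho = 0.72 (permutation p = 3e-05 and 0.0001, adjusted 6e-05 and 0.0002), and r = 0.69 without the 2 farthest. Correlations across the groups of genes were weaker. Col1a1 and Acta2 had r = 0.46 and rho = 0.39 (permutation p = 0.0146 and 0.0516, adjusted 0.0176 and 0.0619), and Dcn and Des r = 0.39 and rho = 0.49 (permutation p = 0.00318 and 0.00642, adjusted 0.00477 and 0.00963), with r = 0.42 and 0.39 without the 2 farthest livers. Col1a1 and Reln had r = 0.29 and rho = 0.33 (permutation p = 0.15 and 0.0997, adjusted 0.15 and 0.0997, r = 0.35 without the 2 farthest). The differences between these correlations were not tested.

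Genes of related pathways were taken from lists outside the 36, and their counts stand beside the 31.6% of all genes that differed by sex and the 19.4% that differed by diet. Several of the shares lay near or below these. In the TGF-β pathway, 6 of 17 were higher and 2 lower in females, of which Tgfbr1, the type I receptor, was lower by 0.29 (adjusted p = 0.00412). On the WD 3 of 17 were higher and none lower. Among collagen processing genes, 1 of 13 was higher and 3 were lower on the WD, with Bmp1, the procollagen C-proteinase, at -0.38 (adjusted p = 2.14e-05), and 2 were higher and 2 lower in females, with Crtap, a partner of prolyl 3-hydroxylase, at 0.51 (adjusted p = 1.47e-05). Of other matrix proteases and inhibitors, 1 of 11 was lower on the WD, namely Reck, a membrane-anchored inhibitor of metalloproteinases (-0.73, adjusted p = 3.14e-06), and 4 were higher and 2 lower in females, with Mmp15, a relative of Mmp14, at -0.58 (adjusted p = 5.66e-08). Other basement membrane genes had 1 of 12 higher and 2 lower on the WD, of which Nid2 (nidogen-2) fell by 0.58 (adjusted p = 0.00187), and 2 higher in females. Col15a1 was 1.69 higher in WT females than in WT males on the WD (adjusted p = 0.00728). Of other stellate cell markers, 2 of 15 were higher on the WD, with Steap4, a metalloreductase, at 0.60 (adjusted p = 3.66e-05). Tpm2 (β-tropomyosin), among the smooth muscle markers, was 2.58 higher on the WD in KO males (adjusted p = 9.21e-05). None of these lists held a gene called for the mean genotype effect.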

How the data were processed

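The 36 genes and all lists were chosen with earlier results of these data known. The authors made mRNA libraries, sequenced 50 bp paired ends and ran Salmon 1.3.0 (decoy-aware GRCm38 index), giving estimated counts, TPM and effective lengths per transcript in the deposited files. GENCODE vM21 named the gene of 115973 of 117135 transcripts, whose estimated counts were summed per gene and rounded. Depth was 10140048 to 15825078 counts, and 0.315% to 0.424% of counts fell outside the annotation. Tests needed 10 counts or more in 4 libraries and used the quasi-likelihood method of edgeR 4.0.16 with TMM factors and robust dispersions (limma 3.58.1, R 4.3.3), in 12 pairs of groups and in 6 contrasts of a model of all 32 libraries, at a Benjamini-Hochberg adjusted p of 0.05. Alternatives were DESeq2 1.42.0 with length offsets, RLE, no filter, edgeR with length offsets, removed length trends (lowess, span 0.3), a replicate block, the model of 32 libraries for pairs, leaving out libraries and, chosen after seeing the data, leaving out the acinar libraries with KO males WD replicate 1. The steps were tested on simulated data. Values per library are given for 16 genes set by name and for those called. For context lists, up to 2 genes with the smallest p are named, apart from 1 gene that is not reported here. Other genes named by level or single liver were chosen after their values were seen. Promoters of 21 of the 36 genes are in the RefSeq table used. Correlations used Python 3.11.15, NumPy 2.4.6 and SciPy 1.17.1, and TPM were used for levels and a log2(TPM + 0.1) alternative.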

Additional observations from a re-analysis of the deposited data

Results flagged for a closer look

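Within groups of 4 livers, the highest or lowest value of the 25 genes followed by library stood apart from the others (Dixon's ratio of gap to range) in 25 of 200 gene and group combinations, where chance flags about 1 in 20. Of these, 11 came from KO males WD replicate 1, high for Col1a1 (37.6 CPM, others 7.14 to 8.19), Col3a1 (114 CPM, others 35.6 to 44.3), Col4a1 (81.0 CPM, others 50.7 to 55.5), Dcn (206 CPM, others 137 to 146), Sparc (93.1 CPM, others 47.1 to 54.3), Timp1 (2.31 CPM, others 0.0768 to 0.309), Mmp2 (5.26 CPM, others 2.68 to 2.86), Lox (1.83 CPM, others 0.537 to 0.755), Pdgfrb (22.8 CPM, others 12.8 to 13.8), Timp2 (19.5 CPM, others 12.0 to 13.0) and Col6a2 (10.4 CPM, others 3.94 to 4.71). In KO females CD replicate 3, Acta2 (27.0 CPM, others 2.06 to 5.68) and Des (73.8 CPM, others 4.85 to 16.6) stood apart. The others were Col1a1 in KO females WD replicate 3 (14.7 CPM, others 7.19 to 8.21), Fn1 in WT males CD replicate 1 (1950 CPM, others 1680 to 1710), Dcn in WT males CD replicate 1 (138 CPM, others 163 to 165), Timp1 in KO females CD replicate 4 (0.231 CPM, others 0.0607 to 0.0811), Acta2 in KO females WD replicate 1 (6.24 CPM, others 1.56 to 2.14), Acta2 in WT males WD replicate 4 (7.46 CPM, others 0.192 to 1.14), Ecm1 in KO males WD replicate 4 (88.2 CPM, others 80.6 to 81.7), Bgn in WT males WD replicate 2 (95.2 CPM, others 80.1 to 81.1), Col6a1 in KO males CD replicate 4 (6.10 CPM, others 9.72 to 9.89), Col6a1 in WT males CD replicate 1 (8.23 CPM, others 9.52 to 9.78), Lum in WT females CD replicate 2 (6.78 CPM, others 9.94 to 10.4) and Pdgfra in KO males CD replicate 3 (9.96 CPM, others 7.99 to 8.22). The values of cell type markers in the first 2 livers are given with the results above, and their part was not tested.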

How the results depend on the processing

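The count of genes called for sex over all livers stayed within 1.5 times of 13 under every alternative run, and ranged over 9 to 17 when 1 liver was left out. No named gene reversed its direction in a comparison where it was called. With DESeq2 and length offsets, 5 genes were called in KO females against KO males CD (2 by edgeR), 2 in WT females against WT males CD (1), 2 for the mean diet effect (0), and 1 each for WD against CD in WT females, KO against WT in males WD and the sex effect in KO minus WT (0 each). Over all genes DESeq2 called 1203, 583, 2189, 86, 49 and 26 in these comparisons. The counts of edgeR there were 837, 280, 2630, 10, 2 and 0. edgeR with length offsets gave 0 for WD against CD in WT males (1), 0 for WT females against males CD (1) and 1 for KO females against males WD (2). Over all genes it called 481, 259 and 981 there, against 1679, 280 and 1228 without offsets. Removed length trends gave 4 for diet in WT males and 1 for the sexes in KO mice WD, with 1211 and 1096 over all genes. The model of 32 livers gave 4 for KO CD and 5 for KO WD between the sexes, and 1 each for diet in KO females and genotype in males WD (0 each). Over all genes it called 1627, 1429, 89 and 39 of 13539 there. No filter gave 1 for the sexes in KO CD (764 of 21794 over all genes). Without acinar livers 18 genes were called for the sexes in WT WD (6), 0 in WT CD, 1 in KO CD, 1 for diet in WT females and 4 for the mean diet effect. Over all genes these fits called 1789, 234, 721, 47 and 2378. With KO males WD replicate 1 also left out, the counts were 18, 0, 1, 1 and 2, and 7 for the sexes in KO WD. Over all genes they were 1789, 234, 721, 47, 2444 and 1187. Leaving out 1 liver gave 1 to 3 for diet in WT males, 0 to 1 in WT females, 0 to 3 for the mean diet effect, and between the sexes 0 to 1 in WT CD, 4 to 18 in WT WD, 1 to 2 in KO CD and 1 to 7 in KO WD; the other counts stayed at 0. Where the cause of a change is not given by the fewer livers or genes tested, it was not tested. On average, livers of the same replicate number did not deviate together (mean r of -0.00475 between livers of the same number and 0.00227 between others). Single correlations of the same number ran from -0.466 to 0.362, and pairing within single comparisons was not tested. With the replicate block the sexes gave 8 calls in WT WD, 0 in WT CD, 1 in KO CD and 1 in KO WD. Over all genes these fits called 1486, 227, 723 and 801. The correlation of Col1a1 with Col3a1 was 0.81 from TPM, that of Col4a1 with Col4a2 0.83 from TPM, that of Acta2 with Tagln 0.68 without acinar livers, and that of Col1a1 with Reln 0.46 from TPM. With 4 livers a group and counts as low as 0 to 29 for Timp1 and 1 to 23 for Lox, small changes in the low genes were not detectable at this depth.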
